A study of Mus musculus with 6 samples.

Results

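The 10 mouse genes described here encode the immunoproteasome and the core machinery that presents peptides on MHC class I: Psmb8, Psmb9, Psmb10, Psme1, Psme2, Tap1, Tap2, B2m, H2-K1 and H2-D1. Every probe set whose only symbol in the platform annotation was 1 of these genes was taken, which gave 25 of the 45037 probe sets tested and covered 9 of the 10 genes, out of 18193 genes that had such a probe set. Psme2 had no probe set of its own, and the single probe set annotated to both Psme2b and Psme2 is given apart and is in no count. Transcripts were measured on Affymetrix arrays in E14TG2a, a mouse embryonic stem (ES) cell line that was the same in both groups. The 3 differentiating samples were grown for 3 days without leukaemia inhibitory factor (LIF, the cytokine that holds mouse ES cells undifferentiated) and sorted for surface 5T4, a glycoprotein encoded by Tpbg. The 3 undifferentiated samples were grown for 3 days with LIF at 1000 units/ml, were sorted for surface 5T4 too, and were 5T4 negative. LIF withdrawal and the sorted 5T4 fraction changed together, so their parts in any difference cannot be told apart. Nothing states that the replicates came from separate cultures, so p-values measure only the spread between these arrays, which may be technical.

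The proteasome cuts intracellular proteins into peptides inside a barrel-shaped core that carries catalytic sites of different specificity. In cells exposed to interferon, and in many immune cells, each constitutive catalytic subunit can be replaced by an inducible counterpart to form the immunoproteasome, and the Psme1 and Psme2 proteins form a cap that activates the core. The Tap1 and Tap2 proteins form the transporter that pumps peptides into the endoplasmic reticulum, where they are loaded on a class I heavy chain, such as the products of H2-K1 and H2-D1, paired with the light chain beta-2-microglobulin encoded by B2m. ES cells are known for low surface class I.

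The proximal promoters of the 4 members with the largest differences are shown, together with that of Irf1, a regulator that rose. They were chosen because interferon and NF-kB signalling act on this gene set through short elements near the start site. Each run gives the 250 bases before an annotated RefSeq start in GRCm38.p6, written 5′ to 3′ on the strand of the gene, and capitals mark matches on either strand to 4 motifs. The motifs were an interferon regulatory factor (IRF) repeat GAAANNGAA, its other form GAANNGAAA, which was added after the first had been searched, the gamma-activated site (GAS) TTCNNNGAA, and the NF-kB consensus; overlapping matches were allowed.
Psmb8, chr17:34197945-34198194, plus strand: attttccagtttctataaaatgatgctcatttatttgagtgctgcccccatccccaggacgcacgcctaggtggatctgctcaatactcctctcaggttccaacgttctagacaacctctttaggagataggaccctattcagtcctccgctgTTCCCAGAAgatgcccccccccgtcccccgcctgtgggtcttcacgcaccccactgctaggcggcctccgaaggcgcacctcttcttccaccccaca
B2m, chr2:122147437-122147686, plus strand: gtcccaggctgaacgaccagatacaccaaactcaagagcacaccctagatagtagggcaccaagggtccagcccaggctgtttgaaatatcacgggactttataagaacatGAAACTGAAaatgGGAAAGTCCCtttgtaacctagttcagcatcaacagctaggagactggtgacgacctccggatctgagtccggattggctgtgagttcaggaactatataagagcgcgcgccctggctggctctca
H2-K1, chr17:34000348-34000597, minus strand: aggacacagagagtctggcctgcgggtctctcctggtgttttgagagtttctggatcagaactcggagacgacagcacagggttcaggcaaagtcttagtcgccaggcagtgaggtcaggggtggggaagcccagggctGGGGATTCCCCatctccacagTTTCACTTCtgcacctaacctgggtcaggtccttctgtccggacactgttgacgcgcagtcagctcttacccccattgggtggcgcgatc
H2-D1, chr17:35262844-35263093, plus strand: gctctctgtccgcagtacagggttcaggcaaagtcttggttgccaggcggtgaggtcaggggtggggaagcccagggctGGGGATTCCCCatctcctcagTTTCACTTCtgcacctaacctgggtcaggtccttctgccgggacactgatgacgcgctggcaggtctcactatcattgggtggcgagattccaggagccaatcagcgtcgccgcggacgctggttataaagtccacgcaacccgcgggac
Irf1, chr11:53769764-53770013, plus strand: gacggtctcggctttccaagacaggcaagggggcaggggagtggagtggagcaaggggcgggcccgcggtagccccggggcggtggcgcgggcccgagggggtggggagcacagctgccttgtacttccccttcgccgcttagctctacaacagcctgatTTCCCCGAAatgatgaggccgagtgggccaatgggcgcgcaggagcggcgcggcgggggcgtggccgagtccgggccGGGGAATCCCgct
The Psmb8 run held 1 GAS match, from -97 to -89 counted from the start. B2m held an IRF repeat from -139 to -131 and an NF-kB match from -126 to -117. H2-K1 and H2-D1 each held a pair of NF-kB matches that overlap each other by all but 1 base, followed by the other IRF form, from -111 to -82 and from -171 to -142, and the windows of these genes share an identical stretch of 47 bases. Irf1, which encodes a transcription factor of the interferon response, held a GAS match from -90 to -82 and an NF-kB match from -13 to -4. In windows of 300 bases that also reach past the start, 9 of the 10 genes had an entry. The IRF repeat was in 2 of these 9 genes (Psme1 and B2m), the other form in 3 (Psme1, H2-K1 and H2-D1), GAS in 1 and NF-kB in 3 (B2m, H2-K1 and H2-D1). Of all 27018 genes with such a window, 9.76% held the IRF repeat, 8.68% the other form, 9.55% GAS and 6.55% NF-kB. The other IRF form was also in the window of Psmb6, a constitutive subunit, and the window of Tapbp, the gene of tapasin, held no match. Psmb9 and Tap1 start next to each other on opposite strands, and their windows share 275 bases, which held no match. A match describes the letters only, and binding was not measured.

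A gene is represented here by its brightest probe set, the one with the highest mean over the 6 arrays. There, all 9 measured genes were higher on every differentiating array than on every undifferentiated array. The same held for 1947 of all 18193 genes. At an adjusted p under 0.1, Psmb8, Tap2, H2-K1 and H2-D1 rose, by 5.21-fold, 1.85-fold, 3.24-fold and 2.40-fold, and Psmb9, Psmb10, Psme1, Tap1 and B2m did not pass. The median log2 difference of the 9 genes was 1.05, with a range of 0.68 to 2.38, against a median of 0.02 over all 18193 genes. Over all 25 probe sets, 7 rose and 0 fell (0 also at an unadjusted p) at adjusted p under 0.1 (limma with Benjamini-Hochberg adjustment over all 45037), where 0.573% of all probe sets rose and 1.03% fell. A log2 change of at least 1 was met as well by 6 of the 7, against 0.329% of all probe sets. On 19 of the 25, every differentiating array lay above every undifferentiated one, against 10.0% of all probe sets. On 1 of the 25, a dim probe set of Tap1, every differentiating array lay below, as on 4622 of all 45037. At an unadjusted p under 0.05, 18 were higher, against 6.28%. The genes were chosen with earlier results of these data known, so these shares describe the set and are no test of it. These are bulk measurements, in which more cells that make a transcript and more transcript per cell cannot be told apart. The calls rest on few arrays: when differentiating replicate 2 or 3 or undifferentiated replicate 3 was left out, none of the 25 passed (0, 0 and 0 of all probe sets then passed higher), with 14, 17 and 16 of the 25 higher at an unadjusted p under 0.05, against 3.87%, 4.86% and 4.01% of all probe sets.

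**Figure D1:**
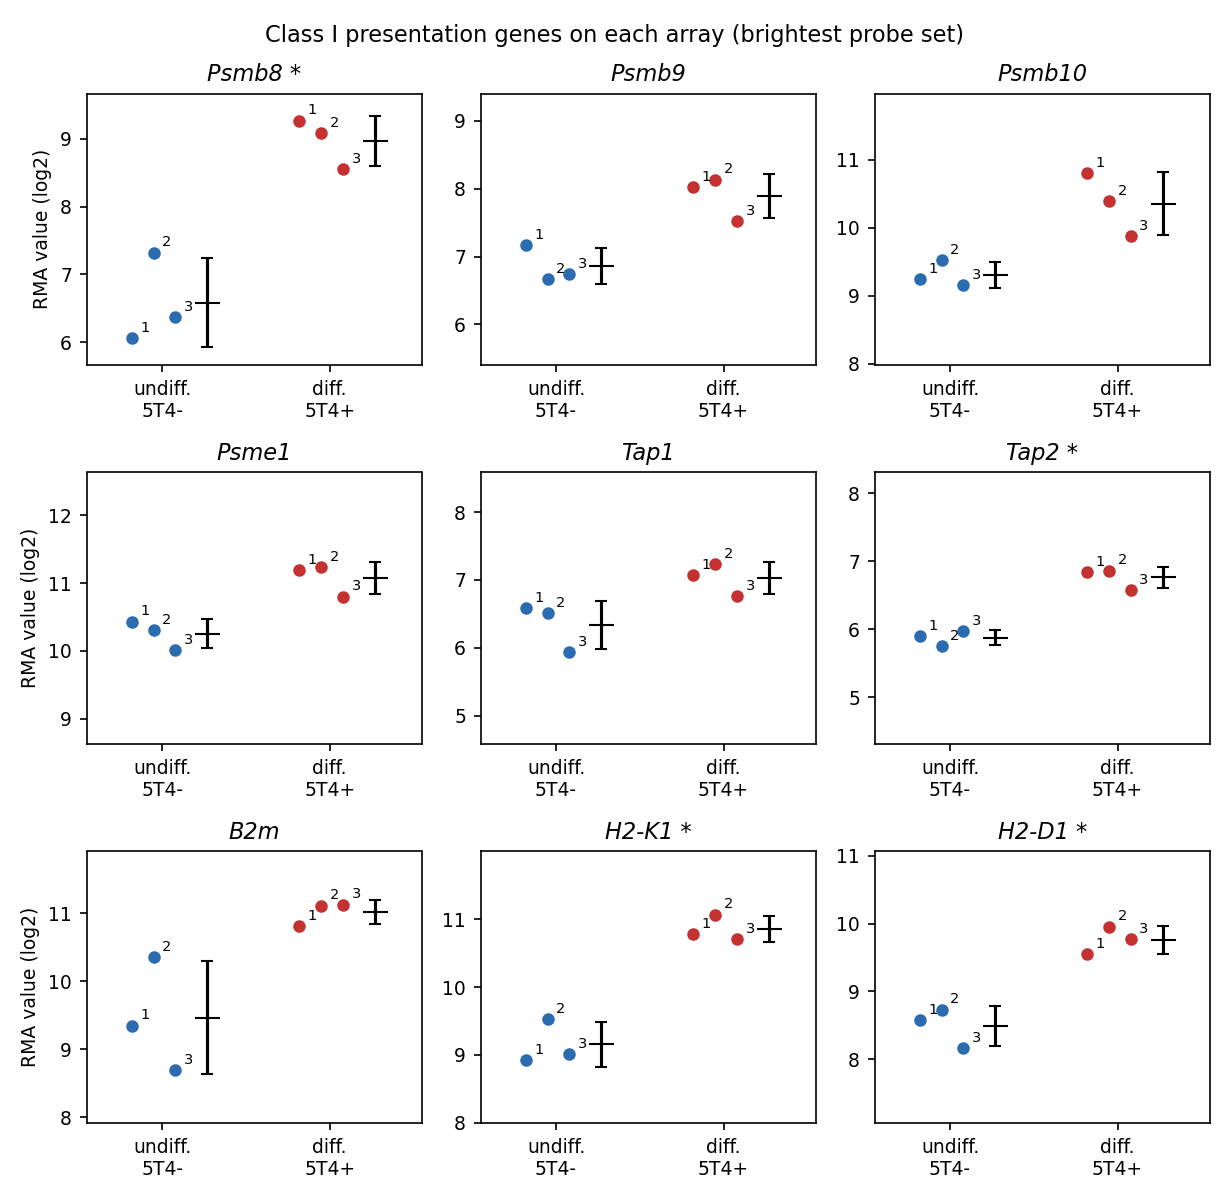
RMA values (log2) of the 9 measured genes at their brightest probe set, on 3 undifferentiated (blue) and 3 differentiating (red) arrays, numbered by replicate, with the mean and SD of each group as bars; each axis spans 4 log2 units, and an asterisk marks an adjusted p under 0.1. For each of the 9 genes all red points lie above all blue points, and undifferentiated replicate 2 is the highest of its group for 5 of them.

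One undifferentiated array stood closer to the differentiating arrays than the others of its group. Over all probe sets, undifferentiated replicate 2 correlated with the 3 differentiating arrays at 0.984 to 0.986. The range was 0.961 to 0.969 for undifferentiated replicate 1 and 0.977 to 0.980 for undifferentiated replicate 3. Within the group, undifferentiated replicates 2 and 3 correlated at 0.991, and undifferentiated replicate 1 correlated less with them, at 0.974 and 0.979. Undifferentiated replicate 2 was the highest of its group in 5 of the 9 genes (Psmb8, Psmb10, B2m, H2-K1 and H2-D1). Undifferentiated replicate 3 was the lowest in 5, and differentiating replicate 3 the lowest of its group in 7. Without undifferentiated replicate 2, 9 of the 25 probe sets rose, the 7 above among them. The labels held for the ES cell markers, of which 3 of 10 fell (Klf4, Pou5f1 and Sox2) and 0 rose, with summed log2 levels of 14.74 to 15.08 on the differentiating and 15.51 to 15.85 on the undifferentiated arrays. Tpbg, the gene of the sorted antigen, read 6.71, 7.52 and 7.97 on the differentiating arrays and 5.94, 6.76 and 5.68 on the undifferentiated ones, which overlap (log2 difference 1.27, adjusted p 0.220).

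The inducible catalytic subunits were led by Psmb8, which replaces the chymotrypsin-like subunit. Psmb8 read 9.26, 9.08 and 8.56 (log2) on the differentiating arrays and 6.06, 7.32 and 6.37 on the undifferentiated arrays. Even the highest undifferentiated array lay more than 1 log2 unit below the lowest differentiating one. The means were 8.97 ± 0.37 and 6.59 ± 0.66 (SD, n = 3 each), a log2 difference of 2.38 (SE 0.34, 95% interval 1.56 to 3.20, adjusted p 0.0583 by limma), and the adjusted p was 0.219 to 0.298 without differentiating replicate 2 or 3 or undifferentiated replicate 3. A second Psmb8 probe set, dimmer than all but 8.15% of the array, differed by 0.36 (adjusted p 0.297), and the mean of both rose by 1.37 (adjusted p 0.0440).

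Psmb9 replaces the caspase-like subunit and Psmb10 the trypsin-like subunit. Psmb9 read 8.02, 8.13 and 7.52 on the differentiating arrays and 7.17, 6.67 and 6.74 on the undifferentiated arrays. The gap between the groups was smaller than the range within either, and the log2 difference of 1.03 (2.04-fold, SE 0.21, 95% interval 0.53 to 1.53) had an adjusted p of 0.105. Psmb10 read 10.80, 10.39 and 9.88 on the differentiating arrays and 9.24, 9.53 and 9.15 on the undifferentiated arrays. Differentiating replicate 1 was highest and differentiating replicate 3 stood closest to the undifferentiated group, and the log2 difference of 1.05 (2.07-fold, SE 0.24, 95% interval 0.48 to 1.62) had an adjusted p of 0.132.

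The constitutive counterparts of these subunits showed no such difference. Psmb5, the counterpart of Psmb8, read 12.07, 12.11 and 12.08 on the differentiating and 11.98, 12.15 and 12.13 on the undifferentiated arrays, a log2 difference of 0.00 (95% interval -0.25 to 0.25, adjusted p 0.998). Psmb6 differed by 0.07 (95% interval -0.21 to 0.34, adjusted p 0.856) and Psmb7 by 0.03 (95% interval -0.21 to 0.27, adjusted p 0.932). The inducible subunit was set over its counterpart within each array, which takes out any shift that the whole array shares. The log2 ratio of Psmb8 to Psmb5 was higher in the differentiating group by 2.38, that of Psmb9 to Psmb6 by 0.97 and that of Psmb10 to Psmb7 by 1.02. In each of the 3 pairs all differentiating arrays lay above all undifferentiated arrays, with an exact two-sided permutation p of 0.1 (0.1 after adjustment over the 3 pairs), the smallest that 3 arrays against 3 can give. A ratio of this kind shows that the transcripts changed unequally and says nothing of their relative abundance.

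**Figure D2:**
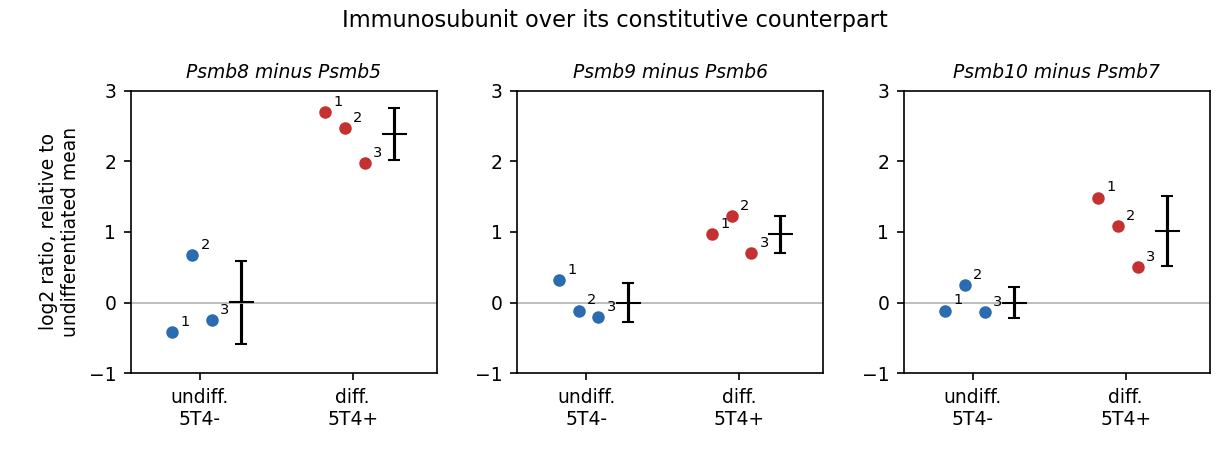
Log2 ratio of each inducible catalytic subunit to its constitutive counterpart on each array, drawn relative to the mean of the undifferentiated arrays, with the mean and SD of each group as bars and arrays numbered by replicate. The differentiating means lie at 2.38, 0.97 and 1.02 above the undifferentiated means, and in no pair do the groups overlap.

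The activator cap was measured fully for Psme1 only. Psme1, its alpha subunit, read 11.19, 11.24 and 10.80 on the differentiating arrays and 10.43, 10.31 and 10.02 on the undifferentiated arrays. All differentiating values were above the undifferentiated ones, and the log2 difference of 0.82 (1.77-fold, SE 0.17, 95% interval 0.42 to 1.23) had an adjusted p of 0.109. The probe set shared by Psme2b and Psme2 read 12.03, 12.03 and 11.73 against 10.37, 10.92 and 10.63, a log2 difference of 1.29 (2.45-fold, SE 0.18, adjusted p 0.0531), and which of these genes the signal comes from cannot be told. Psme3, which encodes a related nuclear activator, differed by -0.19 (adjusted p 0.505). Psme4, which encodes a further activator of the core, rose by 0.59 (SE 0.11, adjusted p 0.0897), and a pair of its other probe sets rose by 0.67 each (adjusted p 0.0710 and 0.0802), while its 3 dimmest did not pass.

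Of the transporter, Tap2 rose. Tap2 read 6.85, 6.86 and 6.58 on the differentiating arrays and 5.90, 5.75 and 5.97 on the undifferentiated arrays. Replicates of each group lay close together, at 6.76 ± 0.16 and 5.87 ± 0.11 (SD, n = 3 each), so that a change of 1.85-fold (log2 difference 0.89, SE 0.13, 95% interval 0.58 to 1.20) reached an adjusted p of 0.0592, with 0.216 to 0.310 without differentiating replicate 2 or 3 or undifferentiated replicate 3. Tap1, its partner in the transporter, read 7.07, 7.23 and 6.77 against 6.58, 6.51 and 5.93 at its brightest probe set. The groups did not overlap, and the log2 difference of 0.68 (1.60-fold, SE 0.21, 95% interval 0.18 to 1.18) did not pass (adjusted p 0.229). The 3 other Tap1 probe sets differed by 0.21, -0.18 and -0.06 (adjusted p 0.630, 0.544 and 0.842), and 2 of them were in the dimmest 25% of the array; the mean of all 4 differed by 0.16 (adjusted p 0.544).

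Probe sets annotated to each of the class I heavy chains rose. H2-K1, which encodes the classical heavy chain K, read 10.78, 11.06 and 10.71 on the differentiating arrays and 8.93, 9.53 and 9.01 on the undifferentiated arrays. More than 1 log2 unit separated the groups, and the means of 10.85 ± 0.19 and 9.16 ± 0.33 (SD, n = 3 each) differed by 1.70 (3.24-fold, SE 0.19, 95% interval 1.24 to 2.15), with the smallest adjusted p of the 25 probe sets, 0.0428. Of its 3 other probe sets, 2 rose, by 1.18 and 1.38 (adjusted p 0.0684 and 0.0463), and the dimmest differed by 0.41 (adjusted p 0.205). Without differentiating replicate 2 or 3 or undifferentiated replicate 3, the adjusted p of the brightest was 0.206 to 0.245.

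H2-D1 encodes the classical heavy chain D and had 9 probe sets. Its brightest read 9.55, 9.95 and 9.77 on the differentiating arrays and 8.57, 8.73 and 8.17 on the undifferentiated arrays. The means, 9.76 ± 0.20 and 8.49 ± 0.29 (SD, n = 3 each), differed by 1.26 (2.40-fold, SE 0.18, 95% interval 0.83 to 1.70, adjusted p 0.0592), and the adjusted p was 0.206 to 0.298 without differentiating replicate 2 or 3 or undifferentiated replicate 3. The second brightest rose by 1.21 (adjusted p 0.0770). The other 7 lay between -0.01 and 0.83 with none passing, 4 of them with overlapping groups, and the mean of all 9 differed by 0.54 (adjusted p 0.0764). All 4 H2-K1 and 7 of the 9 H2-D1 probe sets carry the suffix by which the maker marks probes that also match other transcripts, and all 5 heavy chain probe sets that rose are of this kind. The pair of H2-D1 probe sets without the suffix differed by 0.53 and 0.07 with overlapping groups and did not pass (adjusted p 0.331 and 0.844). Class I heavy chains are near-identical in sequence, so which heavy chain these signals come from is uncertain. A probe set annotated to H2-K1 and H2-D1 together, outside the counts, rose by 1.22 (adjusted p 0.0682).

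B2m, the light chain common to all class I molecules, had a change of similar size and a wider spread. B2m read 10.81, 11.11 and 11.13 on the differentiating arrays and 9.35, 10.35 and 8.69 on the undifferentiated arrays. The differentiating arrays lay close together at 11.02 ± 0.18, while the undifferentiated ones spread over 9.46 ± 0.83 (SD, n = 3 each), with undifferentiated replicate 2 the highest. The log2 difference of 1.55 (2.94-fold, SE 0.39, 95% interval 0.64 to 2.47) had an adjusted p of 0.152, and without undifferentiated replicate 2 it was 2.00 with an adjusted p of 0.0318. Leaving out undifferentiated replicate 3 gave 1.17 (adjusted p 0.370), and leaving out differentiating replicate 2 or 3 gave 1.51 and 1.50 (adjusted p 0.461 and 0.408). The second B2m probe set differed by 1.46 (adjusted p 0.150).

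**Figure D3:**
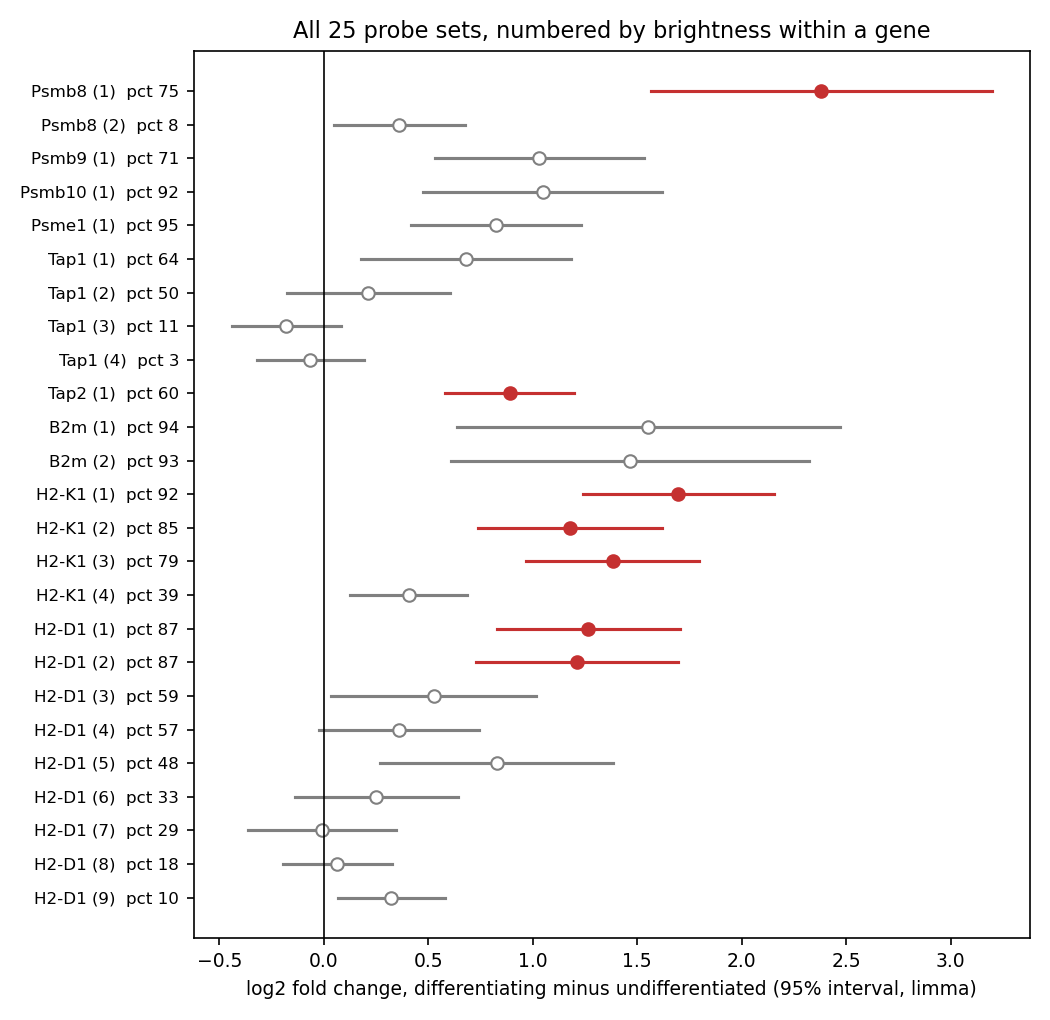
Log2 difference, differentiating minus undifferentiated, of all 25 probe sets with 95% intervals from limma, grouped by gene and numbered from the brightest; pct is the percentile of a probe set's mean among all 45037, and filled points have an adjusted p under 0.1. The 7 filled points belong to Psmb8, Tap2, H2-K1 and H2-D1, and the 3 probe sets at or below 0 are dim ones of Tap1 and H2-D1.

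The remainder of the proteasome did not move with the inducible subunits. Of 18 other genes of the core and its assembly factors, 0 rose and 1 fell (0 and 2 at an unadjusted p under 0.05, limma), with a median log2 difference of -0.07. The gene that fell was Psma8, a core subunit known from the testis, which read 7.30, 6.74 and 6.21 on the differentiating arrays and 9.34, 8.66 and 9.12 on the undifferentiated arrays (log2 difference -2.29, SE 0.30, adjusted p 0.0503). Of 20 measured genes of the regulatory particle that recognises and unfolds ubiquitinated proteins, 0 rose and 0 fell (0 and 5 unadjusted), with a difference below 0 in 18 of the 20 (median -0.13). The largest differences there were -0.49 for Psmd5, a chaperone of its assembly, and -0.48 for Psmd7, a subunit of its lid (adjusted p 0.188 and 0.230). Of all 18193 genes, 145 rose and 264 fell, with 1383 higher and 1746 lower unadjusted, and 8439 had a difference below 0. All differentiating arrays lay below all undifferentiated ones for 5 of the 18 and 6 of the 20, against 2323 of all genes. They lay above for 1 gene of each list, against 1947 of all genes.

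Of 11 measured genes of peptide loading and trimming, 1 rose and 1 fell (4 and 1 at an unadjusted p under 0.05; median 0.10). Tapbp encodes tapasin, which bridges the transporter and the empty class I molecule, and read 10.68, 10.51 and 10.09 on the differentiating arrays and 8.32, 9.48 and 8.77 on the undifferentiated arrays. The groups did not overlap, with undifferentiated replicate 2 the highest of its group, and Tapbp rose by 1.57 (2.96-fold, SE 0.31, adjusted p 0.0951); its second probe set differed by 1.41 (adjusted p 0.139). Lap3, a cytosolic leucine aminopeptidase, fell from 12.08, 12.04 and 12.29 to 11.38, 11.10 and 11.03 (log2 difference -0.97, SE 0.14, adjusted p 0.0592). Erap1, the aminopeptidase that trims peptides in the endoplasmic reticulum, was picked out after its values were seen: it read 7.68, 8.01 and 7.93 against 4.51, 7.20 and 5.94. The undifferentiated arrays were so far apart that its log2 difference of 1.99 (SE 0.60) had an adjusted p of 0.220.

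Of 16 measured regulators of class I and immunoproteasome transcription, 1 rose and 0 fell (3 and 1 at an unadjusted p under 0.05, limma; median 0.05). This was Irf1, which read 10.30, 9.90 and 9.80 on the differentiating arrays and 8.18, 8.78 and 8.81 on the undifferentiated arrays, a rise of 1.41 (2.66-fold, SE 0.22, adjusted p 0.0669). Nlrc5, the class I transactivator, differed by 0.24 (adjusted p 0.476) at a level in the lower part of the array. Of 16 measured interferon ligands, receptors and kinases, 0 rose and 0 fell (median -0.01), with 2 higher and 1 lower at an unadjusted p under 0.05. The ligands among them (Ifng, Ifnb1, Ifna1, Ifna2 and Ifna4) lay between the 4.44th and 37.6th percentile of the array, where a change could be missed. Ifnk, Ifne, Ifnl2 and Ifnl3 were not measured. The interferon receptor chains Ifngr1, Ifnar1 and Ifnar2 differed by -0.02, -0.03 and -0.10 (adjusted p 0.961, 0.962 and 0.875) and Ifngr2 by 0.52 (adjusted p 0.195), and the kinases with the largest differences were Jak2 at 0.57 and Tyk2 at -0.55 (adjusted p 0.291 and 0.326). Over these lists, from the constitutive subunits on, 3 genes rose (Psme4, Tapbp and Irf1) and 2 fell (Psma8 and Lap3). When differentiating replicate 2 or 3 or undifferentiated replicate 3 was left out, 0 rose and 0 fell, and without undifferentiated replicate 1 or 2 the number that rose was 1 or 5.

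**Figure D4:**
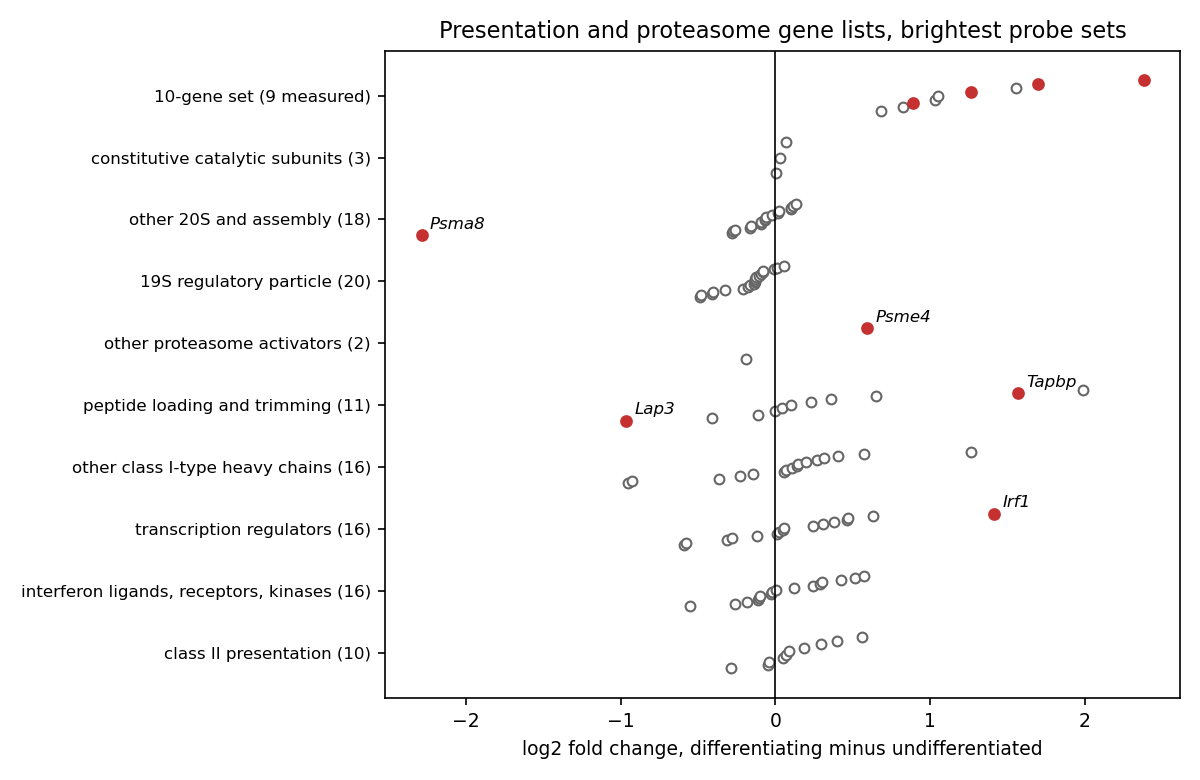
Log2 difference, differentiating minus undifferentiated, of each measured gene at its brightest probe set, by list, with the number of genes measured in brackets; filled points have an adjusted p under 0.1 and are named outside the 10-gene set. The 9 measured members lie between 0.68 and 2.38, while the list medians of the others lie between -0.13 and 0.20.

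No marker of another cell type passed the test. Of 14 measured markers of blood and immune cells 0 rose and 0 fell (1 higher and 1 lower at an unadjusted p under 0.05, limma), with a summed log2 level of 9.23 to 9.69 on the differentiating and 9.32 to 9.87 on the undifferentiated arrays. The largest differences among them were -0.98 for Cd79b, a B cell receptor chain, and -0.36 for Cd68, a macrophage protein (adjusted p 0.417 and 0.723), and Ptprc, the general marker of blood cells, chosen after its values were seen, lay at the 10.4th percentile of the array. The summed level of 7 endothelial markers was 7.64 to 8.10 on the differentiating and 8.17 to 8.57 on the undifferentiated arrays, and 0 of the 7 passed (0 higher and 3 lower unadjusted), with the largest differences -1.17 for Vwf, von Willebrand factor, and -0.92 for Tek, an angiopoietin receptor (adjusted p 0.224 and 0.275). Of 10 fibroblast markers, 0 passed (3 higher and 0 lower unadjusted), and their summed level was 9.20 to 10.26 against 8.79 to 9.70, highest in its group on differentiating replicate 1 and on undifferentiated replicate 2. Dcn, which encodes the matrix proteoglycan decorin, read 6.32, 6.67 and 6.76 on the differentiating arrays and 5.79, 6.05 and 5.94 on the undifferentiated ones, which do not overlap (log2 difference 0.66, adjusted p 0.132). Col1a2, a fibroblast collagen, read 9.34, 7.41 and 7.89 against 5.55, 8.44 and 6.51, so that undifferentiated replicate 2, where 5 members were highest of their group, was also high for it; the part of such cells in the members' values was not tested.

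The members lie on 4 chromosomes: Psmb8, Psmb9, Tap1, Tap2, H2-K1 and H2-D1 on chromosome 17, Psme1 and Psme2 on 14, Psmb10 on 8 and B2m on 2. Psmb9, Tap1, Psmb8 and Tap2 follow each other without another measured gene between them, inside the class II region of the MHC. The 5 measured genes before them were Col11a2, H2-Oa, Brd2, H2-DMa and H2-DMb2, and the 5 after them H2-Ob, H2-Ab1, H2-Aa, H2-Eb1 and H2-Eb2. These 10 differed by -0.29 to 0.56, and none passed (adjusted p 0.448 to 0.966 in limma), while the 4 genes between them differed by 0.68 to 2.38. H2-Aa was nonetheless higher on every differentiating array than on every undifferentiated one. Brd2 had a mean of 10.36 over the 6 arrays. The other neighbours had means of 3.20 to 6.04, below the 6.32 to 7.78 of the 4 genes. RMA shrinks differences of dim probe sets, so a change in these neighbours could be missed.

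The genes whose profile over the 6 arrays was most like that of a member, after subtracting each gene's mean, were not members in any of 27 nearest places (3 for each of 9 genes). The closest match was between Tap1 and P2rx4, an ATP-gated channel, with a root mean square difference of 0.05 log2 units, followed by Tap2 and Fads2, a fatty acid desaturase (0.06), H2-D1 and Limd2 (0.07), and Psme1 and Clic6 (0.08). B2m was nearest to Gab2, a signalling adaptor (0.11), Psmb9 to Hif3a (0.13), and H2-K1 to Trim67 (0.18). Psmb8 had no neighbour as close: Pxdc1 and the kinase gene Lrrk2 differed from it by 0.30 each and Oasl2, an interferon-induced gene, by 0.34. Psmb8 also had the widest range of the 9 genes, 3.20 log2 units against 1.11 for Tap2, and the measure is not scaled to the range. Psmb10 was nearest to Iigp1, an interferon-induced GTPase (0.16). With 6 arrays these values describe likeness only and carry no test.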

How the data were processed

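RNA of 3 differentiating and 3 undifferentiated samples was hybridised to 1 Affymetrix array each. The authors ran RMA from the Bioconductor package affy (version not given in the sources used here), which corrects background, normalizes across arrays and summarises probes, and deposited 1 log2 value per probe set and array. RMA shrinks differences of dim probe sets. The small number of arrays limits the precision. Probe sets were named by the platform annotation: of 45101, 64 array controls were left out, and of the 45037 tested 34945 had 1 symbol, 932 several and 9160 none. Symbols were looked up by gene ID in the RefSeq table of GRCm38.p6 for 34741 probe sets and 0 changed.

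All 45037 probe sets were fitted together by lmFit and eBayes of limma (3.58.1, under R 4.3.3), and p-values were adjusted by Benjamini-Hochberg across the full table. A probe set passed, and is said to rise or fall, at an adjusted p under 0.1 alone; the methods of the study also asked for a log2 fold change of at least 1, which is counted apart. A gene in a list is represented by its brightest probe set. The test was checked on simulated data. Genes were named by rule: the members, their counterparts and main regulators, and from each list up to 4 genes that passed or, with none, the 2 with the largest differences. The members and lists were chosen with earlier results of these data known. Alternatives were a replicate block, leaving out the dimmest 25% of probe sets, a second quantile normalization, median centring, another variance prior, array weights, leaving out each array, averaging the probe sets of a gene, and other thresholds. Promoter windows are from RefSeq (GRCm38.p6).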

Additional observations from a re-analysis of the deposited data

How the results depend on the processing

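The log2 differences of the 9 measured genes stayed above 0 under all 13 alternatives run for each, and no direction was reversed. For most alternatives the direction could not change. The groups did not overlap, so leaving out or weighting arrays could not reverse it. A replicate block, another variance prior and the filter on dim probe sets reuse the same difference. Only a second quantile normalization, median centring and averaging of probe sets could have reversed it. Calls depended on which arrays were kept and on how arrays were weighted. Leaving out each array in turn gave 0 to 9 member probe sets that rose, 0 to 753 of all probe sets that rose and 0 to 738 that fell, and 0 to 5 genes of the pathway lists that rose and 0 to 2 that fell. The log2 differences then ranged over 2.12 to 2.75 for Psmb8, 0.91 to 1.22 for Psmb9 (passing without undifferentiated replicate 1), 0.83 to 0.98 for Tap2, 1.17 to 2.00 for B2m (passing without undifferentiated replicate 2), 1.58 to 1.88 for H2-K1 and 1.10 to 1.39 for H2-D1. The replicate numbers did not pair the samples: the deviations of same-numbered arrays correlated at 0.21, -0.11 and 0.11. With a replicate block 7 member probe sets rose, 6 of them shared with the fit without it, Tap2 no longer passed (0.89, adjusted p 0.102), Psme1 passed (0.82, adjusted p 0.0858) and 0 in place of 3 pathway genes rose. Array weights, which lean on the arrays that fit best, gave 18 member probe sets that rose, 3579 of all that rose and 3595 that fell, 17 pathway genes that rose and 9 that fell, and then Psmb9 (1.26), Psmb10 (1.02), Psme1 (0.99), Tap1 (0.92) and B2m (1.72) passed too; the cause was not tested. Psmb9 passed without the dimmest 25% of probe sets (1.03, adjusted p 0.0954), Psme1 with another variance prior (0.82, adjusted p 0.0931), and Psmb9 (1.03), Psmb10 (1.05) and Psme1 (0.82) with probe sets averaged per gene, where fewer features are adjusted over and dim probe sets lowered Psmb8 to 1.37, H2-D1 to 0.54 and Tap1 to 0.16. The deposited values of differentiating replicate 1 had a median of 5.65 and a lower quartile of 4.26. The other arrays had medians of 5.54 to 5.57 and lower quartiles of 4.07 to 4.10. Median centring left 167 of all probe sets that rose, in place of 258, and 7 member probe sets. An adjusted p under 0.05 left 2 of the 7 member probe sets. Signal limits what can be said of 5 of the 25 probe sets, which lie in the dimmest 25%.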

Other observations

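The other MHC molecules on the arrays were described by the same comparison. Of 36 listed genes of other class I and class I-like heavy chains, 16 had a probe set of their own. Of these 16, 0 rose and 0 fell at an adjusted p under 0.1 in limma, with a median log2 difference of 0.12. At an unadjusted p under 0.05, 2 were higher and 2 lower. Genes without such a probe set include H2-L, H2-Q1, H2-Q4, H2-Q6, H2-Q7, H2-Q8, H2-T22 and H2-T23, so nothing can be said of these. H2-Q2, a class Ib heavy chain, read 3.51, 5.83 and 5.07 on the differentiating arrays and 4.17, 3.15 and 3.30 on the undifferentiated arrays, which overlap, and differed by 1.26 (SE 0.58, adjusted p 0.409). Fcgrt, the heavy chain of the neonatal Fc receptor, which also pairs with beta-2-microglobulin, read 5.48, 5.46 and 5.45 against 7.21, 5.93 and 6.10 and differed by -0.95 (SE 0.32, adjusted p 0.260).

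Of 10 measured genes of class II presentation, 0 rose and 0 fell (0 in either direction at an unadjusted p under 0.05), with a median of 0.08 and summed log2 levels of 8.58 to 9.01 on the differentiating and 8.43 to 8.94 on the undifferentiated arrays. H2-Aa, a class II alpha chain, differed by 0.56 (adjusted p 0.448) and Cd74, the invariant chain, by 0.40 (adjusted p 0.532).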
